A study of Mus musculus with 2 samples.

Results

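The TGF-beta ligands, receptors and targets described here are 8 genes, taken by symbol from the 19059 genes of the matrices. They are the ligands Tgfb1, Tgfb2 and Tgfb3, the latency protein Ltbp1, the receptors Tgfbr1 and Tgfbr2, the inhibitor Smad7 and the target Tgfbi. Tumors were grown from 1 line of mouse glioblastoma stem cells, heterozygous for Trp53 and Nf1, injected into the right striatum of C57BL/6 mice aged 6 to 8 weeks. The mice received either vehicle or 50 mg/kg/day of Xevinapant by oral gavage for 7 days before single-cell RNA sequencing. Xevinapant is a SMAC mimetic, a compound that blocks the inhibitors of apoptosis cIAP1, cIAP2 and XIAP. Both groups share the tumor line and its genotype, and that line is a single model of the disease.

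TGF-beta is secreted in a latent complex, which Ltbp1 ties to the extracellular matrix until integrins or proteases release the ligand. The free ligand binds Tgfbr2, which activates Tgfbr1, which in turn phosphorylates SMAD transcription factors. Smad7 is induced by the pathway and shuts it off at the receptor, and Tgfbi encodes a secreted matrix protein induced by the ligand. In the brain, microglia depend on TGF-beta for their identity, and in glioblastoma the pathway is known for immune suppression and mesenchymal gene expression.

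The 8 deposited matrices, 4 per group, held 4505 to 14728 barcodes, 71835789 to 300206053 unique molecular identifiers (UMIs) and a median of 7452 to 14027 UMIs per barcode. After filters and doublet removal 50962 of 56943 barcodes were kept, and 39463 of them entered 12 classes by the UMIs of marker genes. Sampling noise alone was exceeded 1.14-fold to 1.89-fold between the matrices of 3 pairs within a group, and 3.66-fold to 6.23-fold in the other 9 pairs. Each of the 3 pairs was joined as 1 sample. By their makeup of classes, vehicle 1 and 3 (chi-square over its degrees of freedom, 3.24) differed about as much as vehicle 1 and 2 (3.26), which were not joined. This left 5 samples, and values are given in the order vehicle 1 and 3, vehicle 2 and vehicle 4, then Xevinapant 1 and 2 and Xevinapant 3 and 4. Each group was run as 1 pool with its own batch date, so pool and treatment cannot be told apart. Matrices of the same pool shared 6.48% to 18.6% of their droplet barcodes, and those of different pools shared 0.717% to 2.68%. The methods speak of samples of individual mice and the design had 4 tumors per group, as many as there are matrices, but no label ties a matrix to a mouse. In edgeR with the main settings, joining decided whether Smad7 in malignant cells (adjusted p = 0.409 joined and 0.0206 with each matrix as 1 sample) and Tgfbr1 in macrophages (0.151 and 0.0317) were called. DESeq2 called both with the samples joined. The p-values measure only the spread between these samples, which may be technical. The labels name total RNA for one group and polyA RNA for the other. Malignant cells were gated by oligodendrocyte-lineage tumor markers, by which normal glia cannot be told apart from them.

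Promoters of 2 members are shown because these genes had opposite distributions across the classes: Tgfbi was high in myeloid cells, and Tgfb2 was near 0 in them. The sequences are from RefSeq on GRCm38.p6 and run 5′ to 3′ on the gene's strand over 300 bases, most of them before the start. Capitals mark the letters CAGAC on either strand (GTCTG is their reverse complement), the core letters bound by SMAD proteins. The Tgfbi promoter lies at chr13:56609336-56609635 on the plus strand and the Tgfb2 promoter at chr1:186705940-186706239 on the minus strand.
Tgfbi: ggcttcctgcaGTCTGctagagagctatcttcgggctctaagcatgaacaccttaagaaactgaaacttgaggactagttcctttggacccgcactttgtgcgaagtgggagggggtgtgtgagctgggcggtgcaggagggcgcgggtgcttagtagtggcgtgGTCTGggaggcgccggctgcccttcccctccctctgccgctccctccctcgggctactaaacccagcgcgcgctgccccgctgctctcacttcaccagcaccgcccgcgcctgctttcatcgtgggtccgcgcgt
Tgfb2: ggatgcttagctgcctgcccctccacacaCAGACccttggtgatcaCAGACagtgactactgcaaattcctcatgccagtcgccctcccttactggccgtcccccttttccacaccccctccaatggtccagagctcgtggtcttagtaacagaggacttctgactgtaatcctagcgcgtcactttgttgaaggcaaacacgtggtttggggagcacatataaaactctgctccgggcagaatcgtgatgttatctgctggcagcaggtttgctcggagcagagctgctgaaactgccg
Both windows held 2 copies. The same letters were found in 49.6% of 32851 promoters of this length, so their presence is common. The PU.1 core letters GAGGAA, PU.1 being a myeloid transcription factor, were found on either strand in 28.3% of all promoters, 1 time in the Tgfb2 window and not in the Tgfbi window. Of the 8 members, 6 had an entry. The Tgfb1 window held CAGAC 0 times and the Tgfbr2 window 1 time, while the windows at 2 starts of Tgfbr1 held it 0 and 1 times and those at 2 starts of Ltbp1 held it 1 and 2 times.

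The members fell into distinct patterns across the classes. Tgfb1, Tgfbr1 and Tgfbi had their highest means in monocytes or microglia, and Tgfb2, Tgfb3, Ltbp1 and Tgfbr2 had theirs in fibroblasts or mural cells. Tgfb1, Tgfbr2 and Tgfbi had their lowest means in malignant cells. Levels are given as CPM, the counts-per-million unit: UMIs of the gene scaled by all UMIs of the class in a sample, summed over its cells. Fold differences and fold changes are edgeR estimates with TMM scaling, which the CPM values do not have, so they are not ratios of the printed levels. For Tgfbr1 in microglia against malignant cells, the mean CPM differed 12.4-fold and the edgeR estimate was 16.4-fold. A class needed 10 cells in a sample. Probe sets differ between genes, so levels were compared between classes and not between genes. The plot of levels by class and sample shows these patterns.

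**Figure D1:**
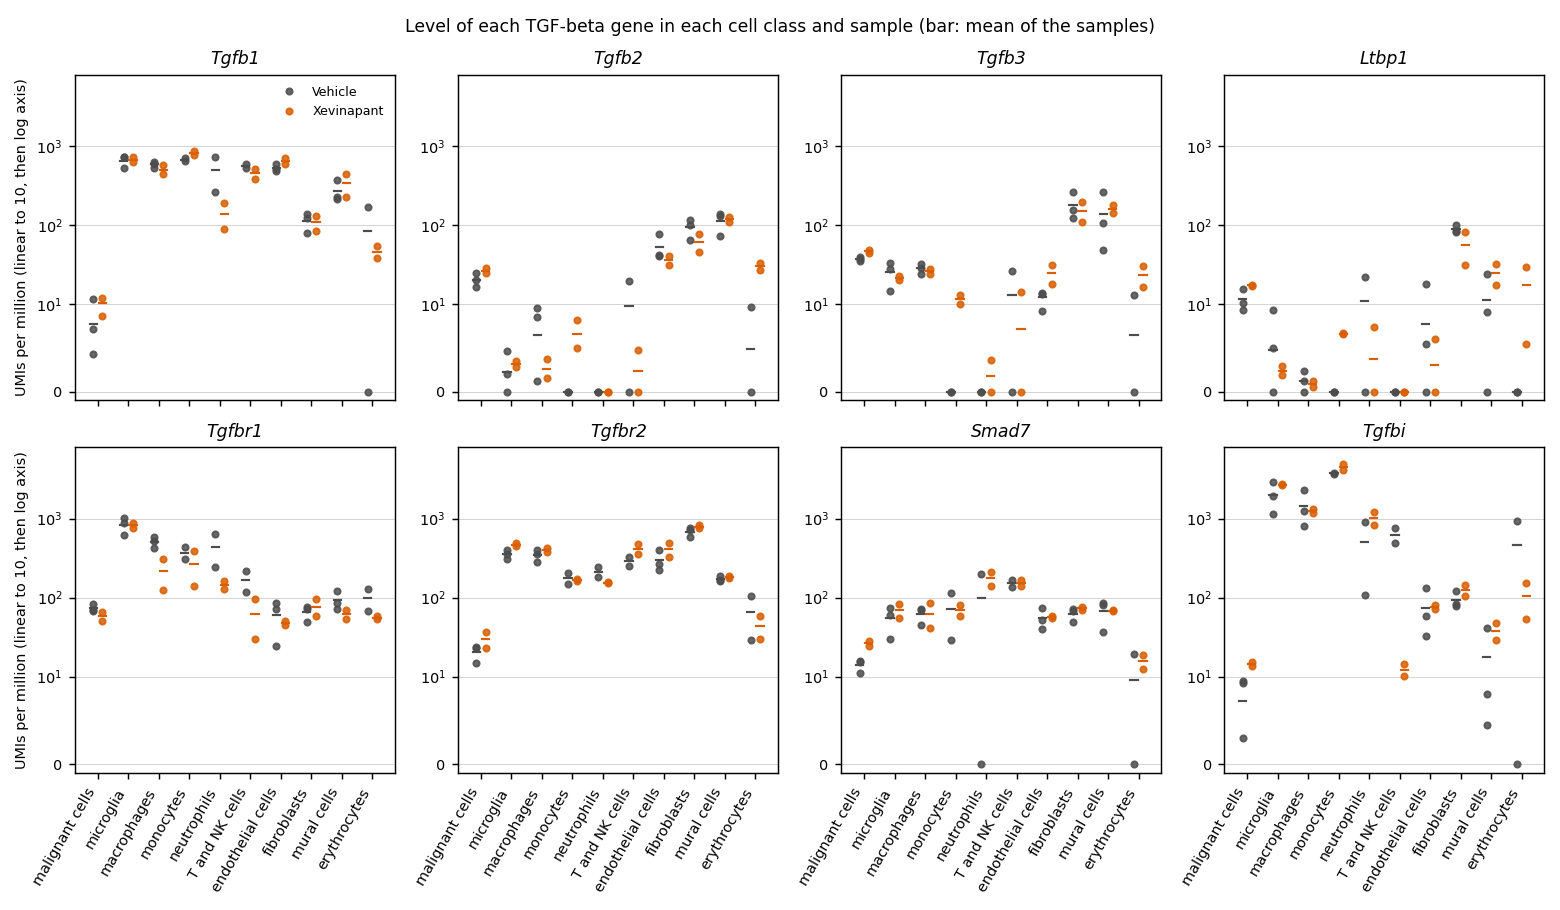
CPM of each TGF-beta gene (y axis, linear to 10 and logarithmic above) in 10 cell classes (x axis), with 1 point per sample (vehicle grey, Xevinapant orange) and a bar at the mean of a group's samples. Tgfbi spans from about 10 CPM in malignant cells to 3669 or more in every monocyte sample, whereas Tgfb2, Tgfb3 and Ltbp1 reach their highest values in fibroblasts or mural cells.

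Tgfb1 (chr7:25687002-25705077, plus strand, GRCm38), the ligand best known for immune suppression, was high in immune and endothelial cells. In microglia it stood at 713, 519 and 713 CPM in the vehicle samples and at 715 and 617 in the Xevinapant samples. In malignant cells of the same tumors it stood at 7.15, 11.6 and 4.31 in vehicle and at 11.9 and 8.55 in Xevinapant. Every microglial sample was therefore above every malignant sample, and the vehicle and Xevinapant values overlapped in both classes. By edgeR's quasi-likelihood test with the sample as a block, Tgfb1 was 103-fold higher in microglia than in malignant cells (log2 6.69 ± 0.25 SE, n = 5 samples, adjusted p = 2.72e-19). The level in order of the class means was monocytes (739 ± 100.3 SD, n = 4), microglia (655 ± 87.2, n = 5), endothelial cells (573 ± 86.6, n = 5), macrophages (550 ± 72.6, n = 5) and T and NK cells (505 ± 87.2, n = 4). Neighbours among these overlapped in their sample ranges. The first neighbours in the order without overlap were dendritic cells (283 ± 121, n = 2, both Xevinapant) and fibroblasts (110 ± 26.7, n = 5). Neutrophils, which came before dendritic cells, ran from 87.8 to 729 and overlapped fibroblasts (79.5 to 136). In T and NK cells, 1 barcode in each vehicle sample also held macrophage genes, as described with Tgfbi below. These barcodes held 12856 and 19921 UMIs, where the class held 51180 and 77448. The levels and fold changes of every member in T and NK cells include them.

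Tgfb2 (chr1:186622792-186705989, minus strand), a ligand tied to development and to glial tumors, was a stromal and tumor transcript. In mural cells, the contractile cells around vessels, it stood at 128, 72.6 and 137 CPM in vehicle and at 108 and 125 in Xevinapant. In fibroblasts it stood at 100.3, 115 and 63.6 in vehicle and at 44.7 and 76.0 in Xevinapant. Mural cells and fibroblasts overlapped in range, and both were above malignant cells, which stood at 24.3, 16.3 and 20.1 in vehicle and at 24.4 and 28.2 in Xevinapant. Tgfb2 was 5.82-fold higher in mural cells than in malignant cells (log2 2.54 ± 0.27, edgeR adjusted p = 8.31e-09), 5.59-fold higher in fibroblasts and 2.43-fold higher in endothelial cells. It was lower in microglia (log2 -2.52 ± 0.41, edgeR adjusted p = 5.93e-06), at 0 to 4.64, and in macrophages (log2 -2.26 ± 0.40, edgeR adjusted p = 1.46e-05), at 1.18 to 9.54. No Tgfb2 UMI was found in 311 neutrophils, which allows a share of cells with a UMI of up to 0.965%.

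Among the states of the malignant cells Tgfb2 had its highest CPM in the astrocyte-like (AC-like) state, gated on Mlc1, Gfap, Id4, Clu and Aqp4. This state held 1756 of the 36076 malignant cells, and 1311 cells in more than 1 state gate were left out. AC-like cells held 135, 99.6 and 126 CPM in vehicle and 86.4 and 113 in Xevinapant. The mesenchymal-like (MES-like), neural-progenitor-like (NPC-like) and cycling states and the cells in no state held 9.42 to 34.8 over all samples. The ranges did not overlap, and no test was run between states. Normal astrocytes that passed the gate on tumor markers would enter this state too, and they were not told apart from AC-like tumor cells.

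Tgfb3 (chr12:86056745-86079041, minus strand), the third ligand, was highest in fibroblasts and mural cells. In fibroblasts it stood at 123, 156 and 257 CPM in vehicle and at 107 and 194 in Xevinapant, and in mural cells at 48.0, 259 and 105 in vehicle and at 143 and 176 in Xevinapant. Malignant cells held 38.9, 36.7 and 34.6 in vehicle and 47.4 and 44.6 in Xevinapant, all below the lowest mural sample. Fibroblasts were 6.96-fold higher than malignant cells (log2 2.80 ± 0.23, edgeR adjusted p = 1.68e-11) and mural cells 3.95-fold higher (log2 1.98 ± 0.26, adjusted p = 3.12e-07). Macrophages, at 23.5 to 31.9, and microglia, at 14.6 to 33.0, passed no test against malignant cells (adjusted p = 0.813 and 0.0935). Without TMM scaling both were lower (log2 -0.64, adjusted p = 0.0320, and log2 -0.91, adjusted p = 0.00556). Microglia were also called lower without vehicle 2 (log2 -0.66, adjusted p = 0.0412) and with the gate raised by a factor of 2 (log2 -0.85, adjusted p = 0.0242). In endothelial cells Tgfb3 was lower (log2 -0.91 ± 0.36, edgeR adjusted p = 0.0364), a call that was lost in 6 alternatives, with adjusted p of 0.0511 to 0.114.

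Ltbp1 (chr17:75005568-75392512, plus strand), which stores latent ligand in the matrix, had its highest mean in fibroblasts. Fibroblasts held 98.1, 83.3 and 81.9 CPM in vehicle and 31.1 and 81.3 in Xevinapant, against 15.4, 10.1 and 9.26 in vehicle and 16.9 and 17.4 in Xevinapant malignant cells. The fibroblast samples were all above the malignant samples, and Xevinapant 1 and 2 stood far below the other fibroblast samples. The difference was 8.63-fold (log2 3.11 ± 0.32, edgeR adjusted p = 2.97e-09). Mural cells, at 0 to 32.3, overlapped fibroblasts in range and passed no test against malignant cells (log2 0.49 ± 0.51, edgeR adjusted p = 0.473). Ltbp1 was lower in macrophages (log2 -3.44 ± 0.65, edgeR adjusted p = 3.38e-05) and in microglia (log2 -1.29 ± 0.47, adjusted p = 0.0183), where the call was lost without either Xevinapant sample and with doublets kept. No Ltbp1 UMI was found in 146 T and NK cells, which allows a share of up to 2.05%.

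Tgfbr1 (chr4:47353222-47414931, plus strand), the signalling kinase of the receptor pair, was highest in microglia. Microglia held 1022, 625 and 869 CPM in vehicle and 757 and 889 in Xevinapant, above every sample of macrophages, the next class in the order. The highest neutrophil sample, at 638, was above the lowest microglial sample. Malignant cells held 66.7, 69.7 and 82.5 in vehicle and 51.0 and 66.4 in Xevinapant. By edgeR the microglial level was 16.4-fold higher (log2 4.03 ± 0.27, adjusted p = 1.82e-13). Macrophages were 8.08-fold higher than malignant cells (log2 3.01 ± 0.26, adjusted p = 4.09e-11). Endothelial and mural cells passed no test (log2 0.01 ± 0.30 and 0.45 ± 0.30, adjusted p = 0.985 and 0.237), and a 1.89-fold higher level in fibroblasts fell to log2 0.14 (adjusted p = 0.615) without TMM scaling.

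Tgfbr2 (chr9:116084293-116175360, minus strand), the receptor that binds the ligand, had its highest mean in fibroblasts and its lowest in malignant cells. B cells came second in the order (484 ± 328 CPM, SD, n = 3), and their range of 258 to 861 overlapped that of fibroblasts. Fibroblasts held 709, 587 and 753 CPM in vehicle and 756 and 830 in Xevinapant. Malignant cells held 23.5, 22.8 and 14.8 in vehicle and 22.9 and 36.6 in Xevinapant. The groups overlapped in malignant cells, both Xevinapant values were above the vehicle values in fibroblasts, and fibroblasts were 52.9-fold higher (log2 5.72 ± 0.18, edgeR adjusted p = 3.59e-20). Macrophages were 22.9-fold, microglia 21.9-fold, endothelial cells 17.6-fold and mural cells 8.73-fold higher than malignant cells, all with adjusted p of 1.46e-14 or less. The means of microglia (400.4 ± 71.8 SD, n = 5), macrophages (368 ± 55.2, n = 5), T and NK cells (351 ± 92.6, n = 4) and endothelial cells (343 ± 106, n = 5) overlapped.

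Smad7, the inhibitory SMAD, was lowest in malignant cells and erythrocytes. T and NK cells held 137 and 168 CPM in 2 vehicle samples, which include the barcodes with macrophage genes, and 141 and 166 in Xevinapant. Malignant cells held 11.3 to 28.4 over the 5 samples, below every sample of microglia (29.6 to 82.0), macrophages (40.6 to 84.4), fibroblasts (48.6 to 76.2), endothelial cells (40.0 to 73.8) and mural cells (36.5 to 86.2). These 5 classes overlapped with each other and were 3.72-fold to 6.29-fold higher than malignant cells, with edgeR adjusted p of 1.26e-06 or less.

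Tgfbi (chr13:56609523-56639562, plus strand), the matrix protein whose promoter is shown above, was highest in monocytes, followed by microglia and macrophages. Monocytes held 3669 and 3837 CPM in 2 vehicle samples and 4176 and 4974 in Xevinapant. Microglia held 1910, 1142 and 2895 in vehicle and 2709 and 2692 in Xevinapant, and macrophages 1258, 809 and 2289 in vehicle and 1192 and 1309 in Xevinapant. Monocytes were above every microglial sample, and microglia and macrophages overlapped. Against malignant cells, at 2.95 to 15.1, microglia were 305-fold (log2 8.25 ± 0.33, edgeR adjusted p = 1.34e-18) and macrophages 213-fold higher (log2 7.74 ± 0.32, adjusted p = 3.26e-18). Monocytes had fewer than 10 cells in vehicle 2 and were not in that test.

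Against malignant cells, 7 of the 8 members were called in microglia, where 62.8% of 11037 genes were called, and 7 of 8 in macrophages, where 71.5% were called. In endothelial cells 6 of 8 were called beside 52.9% of genes, in fibroblasts 8 of 8 beside 59.1%, and in mural cells 6 of 8 beside 41.1%. Of these, 5 were higher and 2 lower in microglia and in macrophages, 5 higher and 1 lower in endothelial cells, and all 8 were higher in fibroblasts and all 6 in mural cells. Without TMM scaling the median of all genes moved from log2 -0.09 to -0.47 in microglia, from -0.07 to -0.63 in macrophages, from -0.02 to -0.34 in endothelial cells, from 0.07 to -0.71 in fibroblasts and from 0.01 to -0.21 in mural cells. The 9 tumor markers stood at 5106 to 6778 CPM in malignant cells, 188 to 764 in macrophages, 422 to 1327 in microglia, 486 to 1271 in fibroblasts, 544 to 1794 in endothelial cells and 1434 to 1959 in mural cells. What tumor RNA added to the members in these classes was not tested.

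The share of cells with at least 1 UMI was compared at equal depth, for which 35359 of 36076 malignant cells, 486 of 500 microglia, 400 of 517 fibroblasts and 229 of 269 monocytes were deep enough. In cells thinned to 2000 UMIs, Tgfb2 was found in 9.33% of endothelial cells and 7.00% of fibroblasts, whereas its mean level was higher in fibroblasts, with overlapping samples. Tgfbi was found in 91.3% of monocytes, 86.6% of microglia and 1.74% of malignant cells (90.3%, 95.2% and 10.3% before thinning). Tgfbr1 was found in 74.7% of thinned microglia and 12.7% of thinned malignant cells (94.4% and 60.5% before thinning), and Tgfbr2 in 66.5% of fibroblasts and 4.59% of malignant cells (81.2% and 26.9%). Tgfb3 was found in 21.2% of thinned fibroblasts and 7.47% of thinned malignant cells, although before thinning the shares were 45.1% and 42.8%. Malignant cells had a median of 15877 UMIs, microglia 8719, fibroblasts 6466 and monocytes 4938, and the plot of shares shows how thinning changed the malignant row. Tgfb2 was found in 2.60% of microglia before thinning and 0.823% after it, and the part of free RNA in this was not tested. Tgfbi was found in 1 of 47 B cells, a barcode that also held 5 or more C1qa UMIs.

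**Figure D2:**
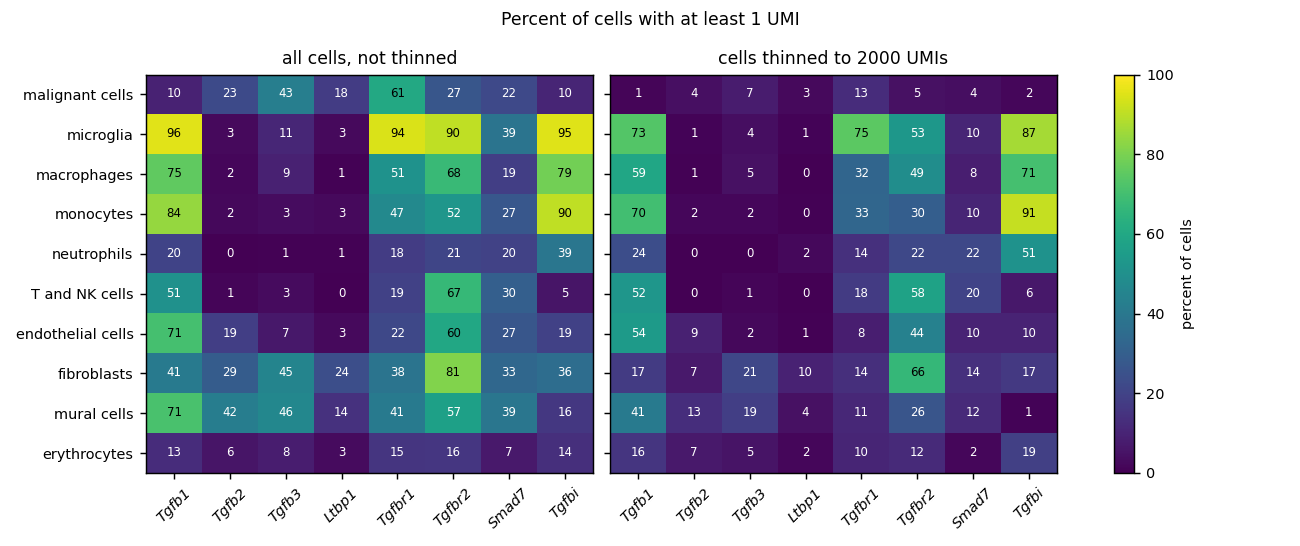
Percent of cells with at least 1 UMI of each TGF-beta gene (columns) in 10 cell classes (rows), for all cells on the left and for cells thinned to 2000 UMIs on the right, with the percent printed in each field. In malignant cells the share for Tgfbr1 falls from 60.5% to 12.7% on thinning, while in microglia it falls from 94.4% to 74.7%.

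The genes whose class means were most like those of each member are given by Pearson's r of mean log2 CPM over the 12 classes. These are descriptions over classes that share libraries. Tgfb1 was most like Abcg1 (r = 0.967), Lgals9 (0.924) and Tln1 (0.923), and Tgfbr1 was most like the microglial genes Gpr84 (0.953), P2ry13 (0.942) and Pla2g7 (0.937). Tgfbi was most like P2ry6 (0.958), the myeloid lysozyme gene Lyz2 (0.957) and the macrophage lectin gene Lgals3 (0.950). Tgfb2 was most like Snai2 (0.994), Lamb2 (0.985) and Nexn (0.981), Tgfb3 like Cpeb1 (0.946) and Wls (0.940), and Ltbp1 like Scara3 (0.980), Ssc5d (0.973) and Grin2d (0.973). Tgfbr2 had the lowest values, with Ly6a (0.845), H6pd (0.826) and Man1a (0.800), and Smad7 was most like Myh9 (0.915), Jak1 (0.892) and Shisa5 (0.874).

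Xevinapant was then compared with vehicle within each class. Of 80 pairs of a member and a class, 58 passed the filter on low counts, 1 passed an adjusted p of 0.05 in edgeR and 6 had an unadjusted p under 0.05. The single call was Tgfbi in T and NK cells, and it rested on 2 barcodes. Over all genes tested edgeR called 0% to 1.26% in these classes. Those with an unadjusted p under 0.05 ran from 192 of 4865 genes in erythrocytes to 1448 of 7993 in endothelial cells.

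**Figure D3:**
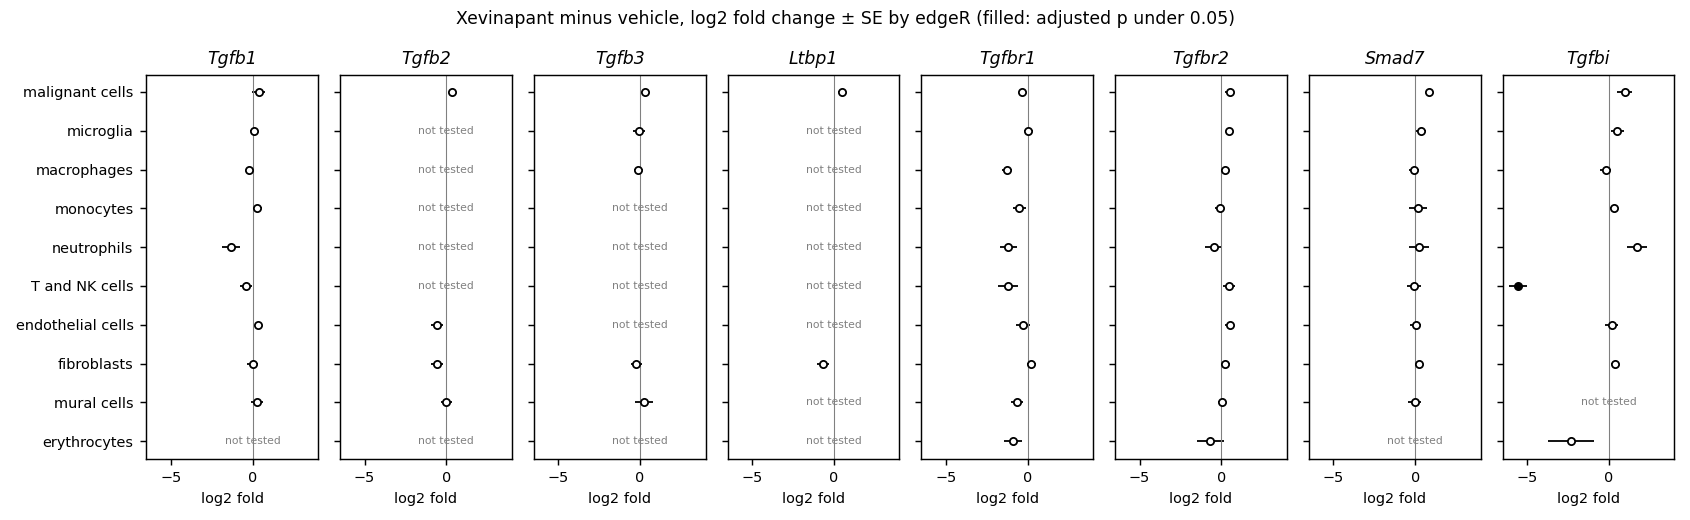
Log2 fold change of each TGF-beta gene, Xevinapant minus vehicle (x axis), in 10 cell classes (rows), as the edgeR estimate with its SE. Tgfbi in T and NK cells, at -5.57, is the only filled point, which marks an adjusted p under 0.05.

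In malignant cells Smad7 had the lowest p of the members. Its level was 15.7, 15.3 and 11.3 CPM in vehicle and 28.4 and 24.7 in Xevinapant. Both Xevinapant samples were above all vehicle samples. The means were 14.1 ± 2.46 (SD, n = 3) and 26.5 ± 2.63 (SD, n = 2), a log2 fold change of 0.87 ± 0.20 (SE) with an edgeR p of 0.00314 and an adjusted p of 0.409. edgeR called 0 of the 8 members in malignant cells, where 0% of 14527 genes were called and 1655 had an unadjusted p under 0.05, Smad7 alone among the members. The share of all genes whose groups do not overlap was not counted, here or in the other classes and states. Separation of the groups is therefore given without a baseline. DESeq2 called Smad7 (log2 0.85, adjusted p = 0.00894) among 292 genes, and edgeR called it with each matrix counted as 1 sample (log2 0.84, adjusted p = 0.0206) but not with the matrix number as a replicate block (log2 0.84, adjusted p = 0.0512).

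Smad7 was higher in both Xevinapant samples in every malignant state too. AC-like cells held 42.5, 34.5 and 22.5 CPM in vehicle and 58.2 and 58.0 in Xevinapant. MES-like cells held 20.6, 23.4 and 15 in vehicle and 38.9 and 35.8 in Xevinapant, a log2 fold change of 0.90. The groups did not overlap in either state, nor in NPC-like cells (8.18 to 9.66 against 11.9 and 15.7), cycling cells (8.64 to 12.8 against 13.3 and 17.8) or cells in no state (9.75 to 14.0 against 18.4 and 20.3). The log2 fold changes ran from 0.43 in cycling cells to 0.90 in MES-like cells. edgeR called 0 of 40 pairs of a member and a state and 0% of genes in each state, whereas DESeq2 called Smad7 in MES-like cells (log2 0.90, adjusted p = 0.0331). An unadjusted p under 0.05 in edgeR was found for 5 of the 40 pairs. These were Smad7 in AC-like, MES-like and NPC-like cells and in cells in no state, and Tgfbr1 in cells in no state. For Smad7 in cycling cells the edgeR p was 0.133. Over all genes an unadjusted p under 0.05 was found for 703 of 11782 in AC-like, 1362 of 13266 in MES-like and 771 of 12663 in NPC-like cells. In cycling cells it was found for 1096 of 13558 genes, and in cells in no state for 1213 of 13313. The states are parts of the same samples and are not independent of each other. Beside Smad7, the microglial and macrophage gene C1qa stood at 17.9, 9.13 and 14.4 CPM in vehicle malignant cells and at 29.1 and 22.6 in Xevinapant malignant cells. C1qa was also higher without overlap in MES-like (11.1 to 13.8 against 24.4 and 25.2), NPC-like (8.18 to 11.7 against 22.0 and 23.6) and cycling cells (7.42 to 16.1 against 19.0 and 25.5). It overlapped in cells in no state (7.55 to 29.3 against 24.2 and 35.4) and in AC-like cells (19.5 to 39.5 against 17.4 and 26.4). Its part in the Smad7 values was not tested beyond leaving out barcodes. Without barcodes holding 5 or more C1qa UMIs the Smad7 fold change in malignant cells was log2 0.86.

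**Figure D4:**
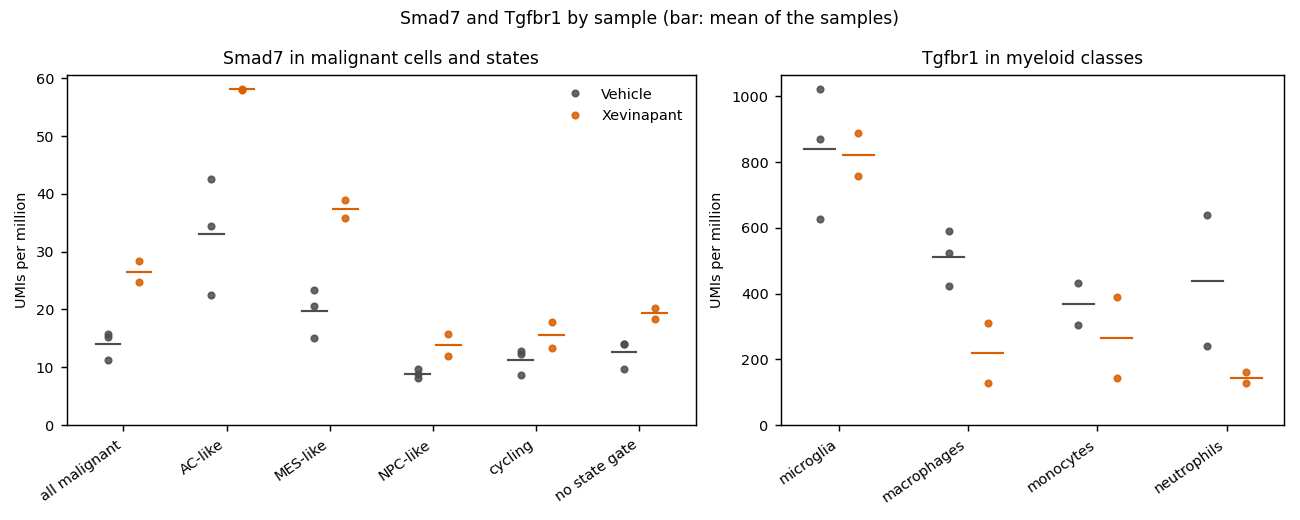
CPM (y axis) of Smad7 in malignant cells and their states (left) and of Tgfbr1 in myeloid classes (right), with 1 point per sample (vehicle grey, Xevinapant orange) and a bar at the mean. Smad7 is higher in both Xevinapant samples in each state, and Tgfbr1 in macrophages is lower in both, at 126 and 311 against 423 to 592.

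The other members in malignant cells did not reach an unadjusted p of 0.05. Tgfb2, Tgfb3 and Ltbp1 were higher in both Xevinapant samples than in all vehicle samples (log2 0.33 ± 0.19, 0.28 ± 0.12 and 0.52 ± 0.25, edgeR adjusted p = 0.509, 0.446 and 0.468), and Tgfbr1 was lower in both (log2 -0.36 ± 0.16, adjusted p = 0.446). Tgfbi stood at 9.25, 2.95 and 9.44 CPM in vehicle and at 15.1 and 13.6 in Xevinapant (log2 0.95 ± 0.46, edgeR adjusted p = 0.470). Tgfbi in malignant cells moved with C1qa across the groups, and barcodes holding 5 or more C1qa UMIs carried 979 of 3219 Tgfbi UMIs in vehicle and 1753 of 4716 in Xevinapant. Without those barcodes the fold change was log2 0.87. The median log2 fold change of the 8 members was 0.43, against 0.00 over all genes tested in malignant cells. This difference was not tested, and the members were chosen with earlier results of these data known.

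In macrophages Tgfbr1 was the member with the lowest p. Vehicle macrophages held 423, 592 and 522 CPM, and Xevinapant macrophages 126 and 311. The groups did not overlap, and Xevinapant 1 and 2 was the lowest sample. The means were 512 ± 84.5 (SD, n = 3) and 219 ± 130.3 (SD, n = 2), a log2 fold change of -1.25 ± 0.31 with an edgeR p of 0.00178 and an adjusted p of 0.151. edgeR called 0 of the 6 members tested, beside 0.0752% of 9313 genes. An unadjusted p under 0.05 was found for 1 of the 6 members and for 1040 of the 9313 genes. DESeq2 called Tgfbr1 (log2 -1.24, adjusted p = 0.00983). The value depended on the Xevinapant samples: it was -1.96 (adjusted p = 0.00344) without Xevinapant 3 and 4, and -0.75 (adjusted p = 0.730) without Xevinapant 1 and 2. With each matrix as 1 sample, which splits the joined pairs, and the matrix number as a replicate block, Tgfbr1 was called (log2 -1.30, edgeR adjusted p = 0.0158). Beside it, C1qa stood at 5802, 5555 and 5738 in vehicle macrophages and at 4618 and 4628 in Xevinapant macrophages. A list was drawn up as microglial genes that need TGF-beta, a need not tested here, and it includes Csf1r, which macrophages also hold. Its 5 tested genes, none of them used by the gate, had a median log2 fold change of -1.27. Among these were Gpr34 (log2 -1.37, edgeR adjusted p = 0.230), P2ry13 (log2 -1.29, adjusted p = 0.128), Fcrls (log2 -1.02, adjusted p = 0.128) and Csf1r (log2 -0.27, adjusted p = 0.648), and edgeR called 0 of the 5. Whether a different makeup of the gate took part was not tested. In the other myeloid classes Tgfbr1 stood at 305 and 433 in vehicle and 142 and 389 in Xevinapant monocytes (log2 -0.50 ± 0.42, which ran from -1.37 without Xevinapant 3 and 4 to 0.08 without Xevinapant 1 and 2), and at 241 and 638 against 128 and 161 in neutrophils (log2 -1.19 ± 0.53, edgeR adjusted p = 0.617). In microglia it differed by log2 0.03 ± 0.28.

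In neutrophils 3 of the 5 members tested had an unadjusted p under 0.05, as had 155 of all 2138 genes tested. edgeR and DESeq2 called none of the members, and edgeR called 0.281% of the 2138 genes. Tgfb1 stood at 263 and 729 CPM in vehicle and at 190 and 87.8 in Xevinapant (log2 -1.32 ± 0.53, edgeR adjusted p = 0.468). Its fold change ran from log2 -2.03 to -0.84 over the samples left out. Tgfbi stood at 109 and 911 in vehicle and at 1210 and 834 in Xevinapant (log2 1.70 ± 0.60, edgeR adjusted p = 0.395), so the groups overlapped. Vehicle 4 held 10 neutrophils with 10971 UMIs in all, and without it the Tgfbi fold change was log2 3.23 (edgeR adjusted p = 0.00348).

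Tgfbi in T and NK cells stood at 488 and 762 CPM in vehicle 1 and 3 and vehicle 4, and at 10.1 and 14.3 in Xevinapant. The groups did not overlap, and edgeR called it lower in Xevinapant (log2 -5.57 ± 0.55, adjusted p = 0.000508), 1 of 5 members tested, beside 0.788% of 2793 genes. Of the 84 Tgfbi UMIs in 49 vehicle cells, 81 were in 2 barcodes. One held 12856 UMIs with 22 of Tgfbi, 36 of C1qa, 10 of the macrophage receptor Csf1r and 10 of Cd3 genes. The other held 19921 UMIs with 59 of Tgfbi, 94 of C1qa, 18 of Csf1r and 23 of Cd3 genes, against a class median of 2113 UMIs. Without the 2 barcodes vehicle stood at 78.3 and 0 CPM, Tgfbi was no longer tested, and the genes called in the class went from 22 to 0. In erythrocytes, likewise, 61 of 73 vehicle Tgfbi UMIs were in 1 barcode with C1qa, and the Tgfbi fold change went from log2 -2.32 (edgeR adjusted p = 0.978) to -0.23 without C1qa barcodes, and it was called in opposite directions without vehicle 2 (-3.34, adjusted p = 3.37e-11) and without vehicle 4 (7.69, adjusted p = 0.00159). The plot of Tgfbi with and without C1qa barcodes shows both.

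**Figure D5:**
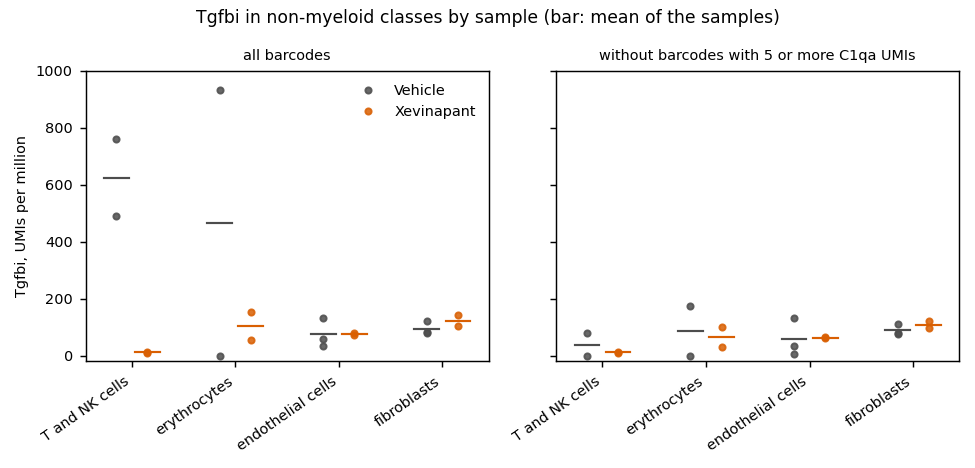
Tgfbi in CPM (y axis) in 4 non-myeloid classes (x axis), for all barcodes on the left and without barcodes holding 5 or more C1qa UMIs on the right, with 1 point per sample (vehicle grey, Xevinapant orange) and a bar at the mean. The vehicle T and NK values fall from 488 and 762 to 78.3 and 0, and fibroblasts keep nearly the same level.

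In the remaining classes edgeR and DESeq2 called no member and no member had an unadjusted p under 0.05. This held for 6 members tested in microglia (0.01% of 9979 genes called by edgeR), 5 in monocytes (0% of 7245), 6 in endothelial cells (1.26% of 7993), 8 in fibroblasts (0% of 9769), 6 in mural cells (0% of 6654) and 3 in erythrocytes (0% of 4865). Tgfbr2 in microglia was higher in both Xevinapant samples, at 490 and 449 against 399, 311 and 353 CPM (log2 0.47 ± 0.22, edgeR adjusted p = 0.838). The Tgfbr2 fold changes were log2 0.50 ± 0.27 in malignant cells, 0.50 ± 0.26 in endothelial cells, 0.46 ± 0.38 in T and NK cells, 0.24 ± 0.26 in fibroblasts, 0.22 ± 0.19 in macrophages and 0.03 ± 0.25 in mural cells. They were log2 -0.09 ± 0.28 in monocytes, -0.48 ± 0.55 in neutrophils and -0.68 ± 0.82 in erythrocytes, and none passed the test. Over the samples left out the Tgfbr2 sign turned in monocytes (-0.21 to 0.18), neutrophils (-0.62 to 0.21), erythrocytes (-1.51 to 0.56) and mural cells (-0.06 to 0.12). The Tgfb1 fold change in malignant cells was log2 0.36 ± 0.42 (edgeR adjusted p = 0.744). A test of the treatment effect in a class against that in malignant cells called 0 of 8 members in microglia, macrophages, endothelial cells and fibroblasts, with 0% of 11037 genes called in each, and 0 of 8 in mural cells, with 0.0815% called. The lowest adjusted p of a member was 0.571, in macrophages.

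The other pathway genes were taken from lists of activation and storage proteins, receptors, SMADs and partners, inhibitors, targets and microglial genes, 64 of which are in the matrices. Of 61 tested against malignant cells, 23 were higher and 23 lower in microglia (median log2 -0.19), 27 and 21 in macrophages (0.36), 38 and 9 in endothelial cells (1.22), 38 and 6 in fibroblasts (1.04) and 36 and 6 in mural cells (0.80). Of all 11037 genes tested, 3336 were higher and 3595 lower in microglia, 3811 and 4083 in macrophages, 3175 and 2659 in endothelial cells, 3831 and 2688 in fibroblasts and 2750 and 1787 in mural cells. Of the 16 targets, 14 were higher and 2 lower in endothelial and in mural cells, 11 and 3 in fibroblasts, 7 and 6 in macrophages and 4 and 7 in microglia, where their median was log2 -1.20. All 5 tested genes of the microglial list, Csf1r among them, were higher in microglia and in macrophages, as were 4 of them in endothelial cells and in fibroblasts and 2 in mural cells.

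By the size of the difference from malignant cells, the 3 leading genes in microglia were Csf1r, the receptor that keeps microglia alive (log2 8.97 ± 0.35), the receptor P2ry13 (8.97 ± 0.32) and Fcrls (8.79 ± 0.41), and in macrophages Nrros, which holds latent TGF-beta on myeloid cells (9.14 ± 0.36), Csf1r (8.58 ± 0.35) and Fcrls (8.48 ± 0.41). In endothelial and mural cells they were the co-receptor Eng (10.99 ± 0.40 and 9.64 ± 0.38), the target Ccn2 (9.27 ± 0.55 and 9.21 ± 0.55) and Lrrc32, which holds latent ligand on the surface (8.32 ± 0.44 and 8.66 ± 0.45). In fibroblasts they were Ccn2 (10.11 ± 0.57), the ligand activator Thbs1 (9.62 ± 0.74) and Lrrc32 (8.99 ± 0.43). Itgb8, the integrin subunit that releases ligand, was among the 3 that were lowest against malignant cells in all 5 classes, with log2 differences of -2.61 ± 0.31 in microglia, -2.99 ± 0.32 in macrophages, -2.26 ± 0.35 in endothelial cells, -2.28 ± 0.32 in fibroblasts and -1.46 ± 0.34 in mural cells. Its mean was 162 CPM in malignant cells and 16.5 to 49.8 in those classes. The storage genes Ltbp4 and Fbn1 were also lower in microglia (-2.59 ± 0.25 and -2.76 ± 0.26), Ltbp4 and Col4a1 in macrophages (-3.40 ± 0.27 and -3.08 ± 0.36), Bmpr1a and Fbn1 in endothelial cells (-1.75 ± 0.27 and -1.10 ± 0.25), Id1 and Id2 in fibroblasts (-1.57 ± 0.27 and -1.05 ± 0.23), and Tgif2 and Acvr2a in mural cells (-1.08 ± 0.34 and -1.01 ± 0.22). All of these passed an adjusted p of 0.05 in edgeR.

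After treatment, edgeR called 0 of the list genes in malignant cells (63 tested, median log2 0.25 against 0.00 over all genes), microglia (53), macrophages (53), monocytes (47), fibroblasts (58), mural cells (49) and erythrocytes (33). The difference of the medians in malignant cells was not tested. In endothelial cells, where 60 genes of 7993 rose and 41 fell (1.26% called), 4 of the 52 list genes rose, with Cdkn1a 2.99-fold, Lrrc32 2.56-fold, Junb 2.24-fold and Bhlhe40 1.97-fold higher, and 2 fell, Bmpr1a to 0.267 and Thbs1 to 0.502 of the vehicle level. The genes called in that class went from 101 to 0 with doublets kept and to 0 with each matrix as a sample in a replicate block. The 9 tumor markers moved with treatment there, at 786, 1794 and 1353 CPM in vehicle and 544 and 713 in Xevinapant, and their part in these calls was not tested. In neutrophils (0.281% of genes called) 1 of 21 fell, Thbs1 (log2 -2.22 ± 0.47, adjusted p = 0.00596). The genes called in neutrophils went from 6 to between 0 (without Xevinapant 1 and 2) and 15 (without vehicle 4, of 10 cells) over the samples left out, and to 0 under DESeq2. In T and NK cells, the class whose calls rested on the 2 barcodes (0.788% of genes called), 2 of 13 fell, Csf1r among them.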

How the data were processed

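The authors deposited raw UMI counts per gene and cell, unnormalized whole numbers from a probe-based kit on fixed cells. The matrix headers name Cell Ranger 7.1.0, the study's methods name an earlier version, and the submitters' processing notes name mm10 and Seurat. The names of the Xevinapant files include the word Vehicle, and their group was taken from the label.

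Cells were kept at 200 genes or more, at most 10% mitochondrial UMIs and a complexity of 0.8 or more, and the highest Scrublet scores were removed at 0.8% per 1000 barcodes (scanpy 1.11.5), 3612 barcodes in all. A class needed 3 UMIs of 2 markers and 0.1 of the level in the cells with the most marker UMIs. Malignant cells needed 10 UMIs of 4 of 9 tumor markers and no other gate, and 11499 cells entered no class. Sall1, Zbtb46 and Notch3 were left out of the gates because tumor cells hold them, and matrices were joined under a limit of 2.5 times the sampling noise. Both choices were made after seeing the data.

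Counts were summed per sample and class and tested with edgeR 4.0.16 (R 4.3.3; TMM, filterByExpr, quasi-likelihood, Benjamini-Hochberg adjustment over all genes tested at 0.05), with the sample as a block between classes. Alternatives were DESeq2 1.42.0, no TMM, no filter, each matrix as a sample, each sample left out, thinned counts, doublets kept, a gate raised by a factor of 2, 5% mitochondrial UMIs and, added after seeing the data, no barcodes with C1qa. The fits were tested on simulated data.

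Named genes are the 8 members, the 3 genes most like each by correlation of log2(CPM + 5) among genes at 10 or more in a class, gate markers left out, and the 3 list genes that were highest and lowest per class among those called. Some genes under this rule are not reported here. Coordinates are from GENCODE on GRCm38. The members and lists were chosen with earlier results of these data known. Limits on shares cover counting error only.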

Additional observations from a re-analysis of the deposited data

How the results depend on the processing

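No member called in the reported comparisons turned its direction under an alternative. Tgfbi in erythrocytes, not called there, was called lower without vehicle 2 (log2 -3.34, adjusted p = 3.37e-11) and with no filter (log2 -2.18, adjusted p = 0.00595), and higher without vehicle 4 (log2 7.69, adjusted p = 0.00159). For the treatment effect, 1018 of 1129 values kept direction and side of the threshold, 12 kept direction and passed it where the reported value did not, and 99 values changed sign, of which 1, Tgfbi in erythrocytes without vehicle 4, passed it. For the level against malignant cells these were 336 of 360, 6 and 8, with 10 calls lost, and for the difference of treatment effects 291 of 320, with 29 sign changes. The members past the threshold after treatment went from 0 to 1 in malignant cells under DESeq2 and with each matrix as 1 sample (Smad7). In MES-like cells they went from 0 to 1 under DESeq2 (Smad7). In macrophages they went from 0 to 1 (Tgfbr1) with no filter on low counts, under DESeq2, with each matrix as 1 sample, with the replicate block on the matrix number, and with the gate raised by a factor of 2, and from 0 to 1 over the samples left out. Leaving out samples gave 0 to 1 in neutrophils (Tgfbi) and 0 to 2 in erythrocytes (Tgfbi among them), where no filter gave 1. In T and NK cells the count went from 1 to 0 without barcodes holding C1qa. Where a group was left with 1 sample, that sample was assumed to vary like those of the other group. The cause of these changes was not tested, apart from the C1qa barcodes themselves.

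Between the pools, matrices of the same number shared 35, 83, 80 and 185 whole barcodes, letters after the droplet barcode included. Those of different numbers shared 0. The matrix number thus goes with a set of barcodes in both pools, and no label says what else it marks. Against each matrix as 1 sample without the block, the replicate block on the matrix number lost the call of Smad7 in malignant cells (edgeR adjusted p 0.0206 to 0.0512). It kept that of Tgfbr1 in macrophages (edgeR adjusted p = 0.0158), with no other member called in either. It gave 33 genes in malignant cells, where edgeR's count was 0, DESeq2's 292 and that with each matrix as 1 sample 683. Counts of genes called moved by over 1.5 times in the other classes too: from 7 to between 0 and 381 in macrophages, from 101 to between 0 and 471 in endothelial cells, and from 22 to between 0 and 94 in T and NK cells. Not thinning moved 64 of 88 shares of cells by more than their SD over samples. Some classes were small: mural cells held 14 to 28 cells in a sample, and in vehicle samples neutrophils held 10 to 41 and T and NK cells 16 to 25. What class size did to the calls was not tested.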
